A study of Mus musculus with 8 samples.

Results

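The mitochondrial ribosomal proteins are the nuclear-encoded proteins of the ribosome that works inside mitochondria. Their genes were taken here as all those whose RefSeq symbol, matched through the accession of the array probe, starts with Mrpl (large subunit) or Mrps (small subunit) followed by a number. This gave 78 genes of the 20145 named genes on the array. Of these, 57 had 1 probe and 21 had 2. In all, 77 of the 78 were tested, among 12738 genes tested. Mrpl21, a large-subunit protein with 1 probe, was well above background on 0 of 8 arrays and was not tested. Mrps36 meets the symbol rule although its product is known as a component of the oxoglutarate dehydrogenase complex, so it is counted among the 77 but kept apart from the subunits. A few further proteins of the mitochondrial ribosome carry other symbols and are given separately.

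RNA came from EDL muscle (extensor digitorum longus, a fast muscle of the lower hindlimb) of 8 male C57BL/6 mice, each on its own single-colour Agilent array. The 4 PCKO mice carry an inducible knockout of p300 (Ep300) and CBP (Crebbp) restricted to skeletal muscle, and the other 4 were labelled wildtype (WT). The genotype field of the PCKO mice names only CBP, while the protocol names both genes. That protocol, repeated for all 8 samples, gives tamoxifen, the inducing drug, by gavage on 5 days from 13 to 15 weeks of age, with muscles taken 1 day after the last dose and a 4 h fast. The promoter driving the recombinase, and whether the WT mice carried floxed alleles or the recombinase, are not stated in the labels. The whole muscle was used, so cell types outside the fibres keep their intact genes. The comparison addresses how the loss of both coactivators changes muscle transcripts within days.

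Mitochondrial DNA encodes only a few proteins, all of them core parts of the respiratory chain and the ATP synthase, and the mitochondrial ribosome makes all of these. Its RNAs come from mitochondrial DNA, but every one of its proteins is encoded in the nucleus, made in the cytosol and imported. Some of these proteins have counterparts in bacterial ribosomes, while others exist only in mitochondria. p300 and CBP are closely related acetyltransferases that transcription factors recruit to promoters and enhancers as coactivators.

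The transcripts of this protein family differed in both directions, mostly by small amounts. A level is given as log2 of the spot intensity minus the 75th percentile of its array, and a difference as PCKO minus WT on this scale, ± the standard error of limma's fit (4 mice in each group). The median difference of the 77 tested members was -0.15, against 0.06 for all 12738 genes. Their middle 50% ran from -0.46 to 0.10, an interquartile range of 0.56, where the range for all genes was 1.14. At an adjusted p under 0.05, 48 of 77 members were called (62.3%), beside 71% of all genes tested. Of these, 16 were higher in PCKO (20.8% of members, against 38.3% of all genes) and 32 lower (41.6%, against 32.7%). Every PCKO mouse lay above every WT mouse in 16 members (20.8%, against 36.1% of all genes) and below in 32 (41.6%, against 29.7%). These were the 48 called members. The other 29 were not called, and for 28 of them the 95% interval of the difference lay within 0.5 of 0 on the log2 scale. The exception was Mrps14, a small-subunit protein, at -0.27 (interval -0.52 to -0.01). A change of at least 2-fold was called in 1 member, Mrpl42, whereas 25.6% of all genes passed this size.

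How the arrays are put on a common scale decides the sign of many of these differences. The 75th percentile stood 0.68 higher in PCKO than in WT relative to 7 spike-in probes (-2.80 ± 0.34 against -3.48 ± 0.30, SD, n = 4, exact permutation p = 0.0286, two-sided, the smallest that 4 against 4 can give). Relative to the spike-ins, 27 members were higher (35.1%, against 53.5% of all genes) and 0 lower (against 9.44%), where 62.9% of all genes were called in either direction, with a median of 0.53 beside 0.73 for all genes. On that scale the fit gave 76 of the members the same standard error, 0.31, whatever their own spread between mice. For these members a call there thus depended on the size of the difference alone. Why the fit gave 1 common error was not tested. After quantile normalization 28 members were higher (36.4%, against 43.3%) and 21 lower (27.3%, against 29%), beside 72.2% of all genes in either direction, with a median of 0.02 beside 0.15. The median of the members thus lay below the median of all genes on each of the 3 scales. The spike-in scale shifts nearly all genes by the same amount, so its agreement with the 75th percentile here was fixed in advance. The same call on all 3 scales was made for 16 members as higher (20.8%, against 38.2% of all genes) and for 0 as lower (against 9.31%). These 16 are the 16 called higher at the 75th percentile. The spike-in scale adds 0.68 to every gene fitted on all arrays, so their higher calls could not be lost there. That part of the agreement was fixed in advance, and lower calls were harder to keep. Of the 32 called lower, 21 were also lower after quantile normalization, while Mrpl33 turned from -0.22 to 0.23 and was called in both directions. A constant shift leaves the order of the differences as it is, while quantile normalization can change it. Values below are on the 75th percentile scale unless another is named.

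**Figure D1:**
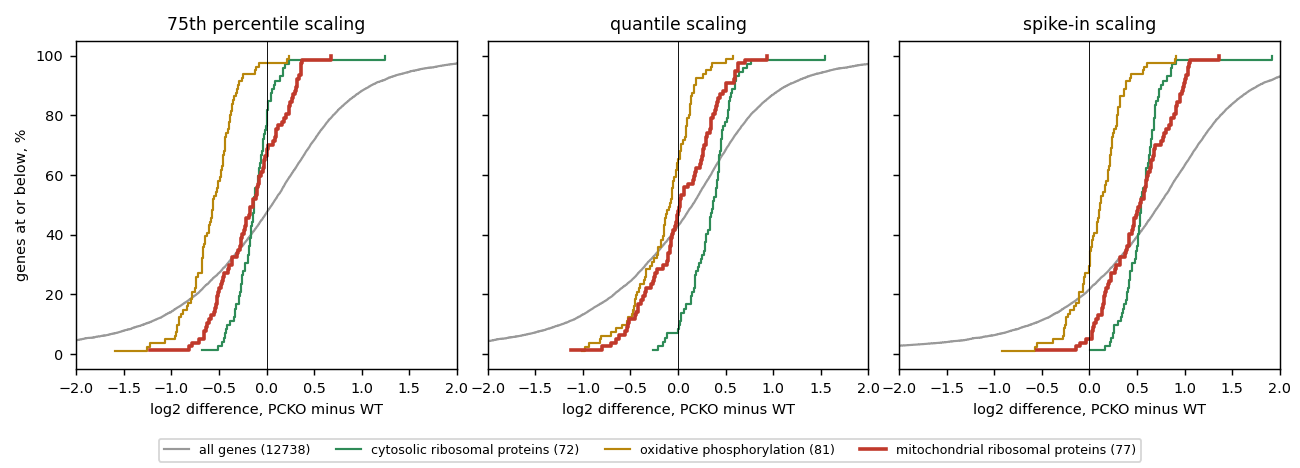
Cumulative share of genes (y axis, percent) against the log2 difference PCKO minus WT (x axis) for the mitochondrial ribosomal proteins, the nuclear oxidative phosphorylation subunits, the cytosolic ribosomal proteins and all tested genes, in 1 panel per scaling. The medians of the mitochondrial ribosomal proteins are -0.15, 0.02 and 0.53 under 75th percentile, quantile and spike-in scaling, and the 3 protein families are each narrower than all genes.

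The targeted transcripts were both lower at the 75th percentile. Ep300 differed by -1.44 ± 0.11 (adjusted p = 5.49e-06) and Crebbp by -0.70 ± 0.11 (adjusted p = 0.000379), with no overlap between groups. Relative to the spike-ins Ep300 stayed lower (-0.77), while Crebbp was at -0.02 (adjusted p = 0.956). Whether the probes lie within the deleted exons is not stated in the labels, so neither value measures the efficiency of the knockout. Between 43.4% and 46.1% of the non-control probes passed the background test on any array, and saturated spots numbered 0. The 6 fast-fibre markers were all called lower (6 of 6), with a summed level (in multiples of the 75th percentile) of 1098 to 1423 in PCKO and 3913 to 5152 in WT. Markers of other cell types were also lower at this scale, in 4 of 4 for endothelium (11.3 to 13.6 against 14.9 to 22.1), 5 of 5 for fibroblasts (213 to 291 against 427 to 531), 3 of 3 for smooth muscle (31.4 to 43.6 against 64.4 to 85.3) and 3 of 4 for macrophages (8.37 to 17.3 against 22.9 to 28.8). For Schwann cells 1 of 3 was lower (3.02 to 5.74 against 4.37 to 6.57). None of the tested markers of satellite cells (1), adipocytes (2) and red blood cells (2) was called. The spike-in scale gave fewer lower calls, 4 of 6 for fast fibres, 3 of 5 for fibroblasts and 1 of 4 for macrophages. Endothelium, smooth muscle and Schwann cells had 0 lower calls there. Pax7 (satellite cells) and Alas2 (red blood cells) were called higher on that scale, with its common standard error of 0.31. At the 75th percentile their groups overlapped, at 0.82 ± 0.42 for Pax7 and 0.57 ± 0.66 for Alas2. Pax7 was well above background on 3 of 4 PCKO arrays and 1 of 4 WT arrays. In bulk muscle, fewer cells of a type and less RNA per cell cannot be told apart, and the part of these shifts in the results was not tested.

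The member with the lowest difference was Mrpl42, a large-subunit protein without a bacterial counterpart. Its level was 3.34, 3.37, 3.63 and 3.37 in the PCKO mice and 4.69, 4.67, 4.75 and 4.51 in the WT mice. All PCKO mice lay below all WT mice, with 1 PCKO mouse above the other 3. The difference of -1.23 ± 0.09 amounts to 2.34-fold less (adjusted p = 5.57e-06). After quantile normalization it was -1.12, whereas relative to the spike-ins it was -0.55 and no longer called (adjusted p = 0.105).

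At the other end stood Mrps25, a small-subunit protein that also lacks a bacterial counterpart. Its level was 5.96, 5.71, 5.94 and 5.76 in the PCKO mice and 5.12, 5.31, 5.04 and 5.19 in the WT mice. The groups did not overlap, and the difference of 0.68 ± 0.09 was 1.60-fold (adjusted p = 0.000193). It was called higher after quantile normalization (0.94) and relative to the spike-ins (1.36) too. A dimmer second probe for the gene read 0.18 ± 0.09 and was not called (adjusted p over all probes = 0.0971), so the size of the change rests on the brighter probe. Subtracting Mrpl42 from Mrps25 within each array removes any constant shift of that array. This contrast was 2.31 to 2.62 in PCKO and 0.30 to 0.67 in WT, a difference of 1.91 between the group means. The pair was picked for its extremes, so this is a description.

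**Figure D2:**
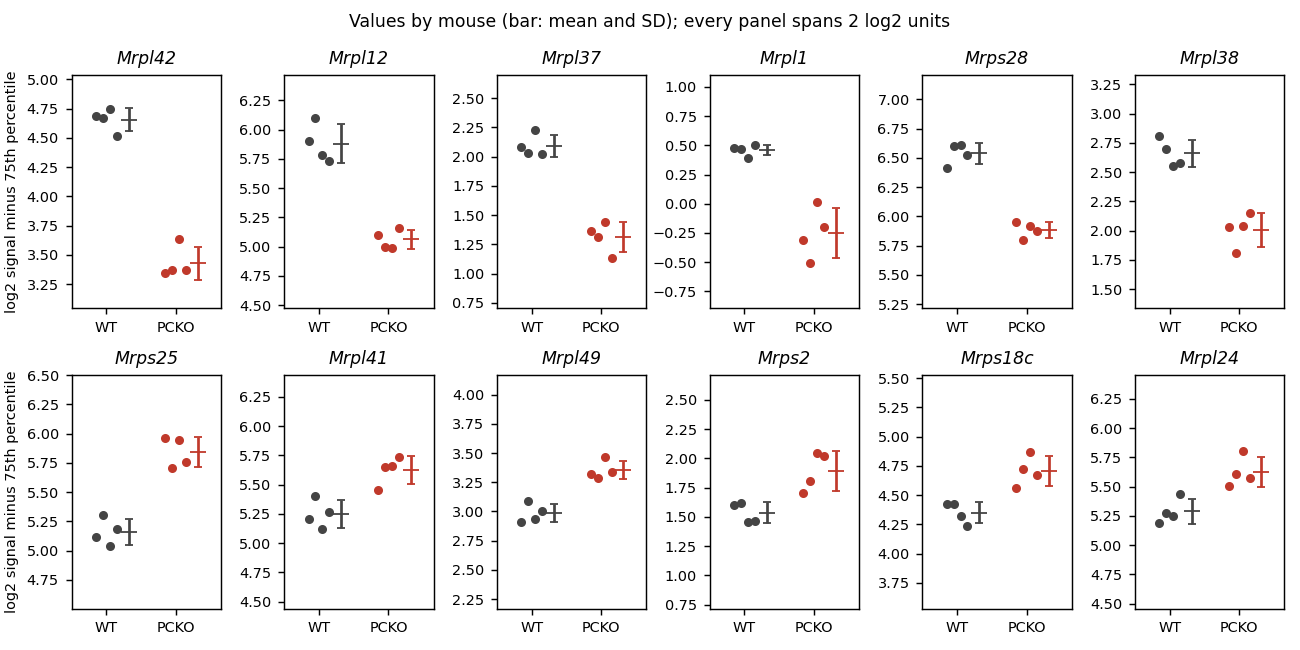
Level of selected members in each of the 8 mice (y axis, log2 intensity minus the 75th percentile of the array), with PCKO and WT points side by side and a bar at each group mean with its SD. For Mrpl42 the PCKO mice sit at 3.34 to 3.63 and the WT mice at 4.51 to 4.75, and for Mrps25 the PCKO mice sit at 5.71 to 5.96 and the WT mice at 5.04 to 5.31. Under spike-in scaling the 6 higher members stay above 0, and of the 6 lower ones Mrpl42, Mrpl12, Mrpl37 and Mrpl1 stay below 0 while Mrps28 and Mrpl38 turn to 0.03.

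The promoters of these opposite extremes are shown because the transcripts of both genes moved apart within the same arrays. The windows are RefSeq's for GRCm38.p6 and run from 250 bases before to 50 bases after the start of the gene, 5′ to 3′ in the direction of transcription. The Mrps25 window lies at chr6:92183974-92184273, minus strand and the Mrpl42 window at chr10:95501900-95502199, minus strand. Capitals mark matches, on either strand, to motifs named for NRF1, ETS factors with GABP, YY1, CREB and SP1, whose letters are given with the other promoters. Mrps25 holds none of them, while Mrpl42 holds 1 SP1 and 1 YY1 match.
Mrps25: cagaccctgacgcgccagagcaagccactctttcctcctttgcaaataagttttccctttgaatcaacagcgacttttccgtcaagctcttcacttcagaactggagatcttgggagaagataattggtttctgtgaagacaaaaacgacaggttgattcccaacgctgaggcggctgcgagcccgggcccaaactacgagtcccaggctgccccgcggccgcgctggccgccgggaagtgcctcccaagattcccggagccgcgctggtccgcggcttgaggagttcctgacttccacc
Mrpl42: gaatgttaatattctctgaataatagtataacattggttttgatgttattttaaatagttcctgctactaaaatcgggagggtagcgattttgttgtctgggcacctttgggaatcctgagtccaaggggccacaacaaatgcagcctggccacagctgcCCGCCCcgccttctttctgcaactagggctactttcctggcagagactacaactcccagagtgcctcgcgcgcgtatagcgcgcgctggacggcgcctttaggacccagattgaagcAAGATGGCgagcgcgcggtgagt

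Among the large-subunit proteins with a bacterial counterpart, 6 of 29 tested were called higher (20.7%, against 38.3% of all genes) and 16 lower (55.2%, against 32.7%), with a median of -0.22. This balance holds at the 75th percentile. Quantile normalization gave 10 higher and 10 lower (34.5% each, against 43.3% and 29% of all genes), with a median of -0.06. The spike-in scale gave 8 higher (27.6%, against 53.5%) and 0 lower (against 9.44%), with a median of 0.45. The lowest was Mrpl12, the stalk protein that contacts translation factors. It read 5.10, 5.00, 4.99 and 5.16 in PCKO and 5.90, 6.10, 5.78 and 5.73 in WT, a difference of -0.82 ± 0.10 (adjusted p = 8.83e-05) with no overlap. Mrpl1, whose bacterial counterpart forms the mobile stalk where tRNA leaves, was much dimmer. Its level was -0.31, -0.51, 0.01 and -0.20 in PCKO against 0.48, 0.47, 0.40 and 0.50 in WT, a difference of -0.71 ± 0.11 (adjusted p = 0.000425). The PCKO mice differed more among themselves here than the WT mice did (SD 0.22 against 0.05). Both differences were near 0 relative to the spike-ins, at -0.14 for Mrpl12 and -0.03 for Mrpl1. The other members of this class called lower were Mrpl14 (-0.64), Mrpl28 (-0.63), Mrpl30 (-0.61), Mrpl34 (-0.53), Mrpl15 (-0.53), Mrpl13 (-0.48), Mrpl47 (-0.46), Mrpl18 (-0.45), Mrpl55 (-0.40), Mrpl2 (-0.36), Mrpl4 (-0.30), Mrpl22 (-0.28), Mrpl33 (-0.22) and Mrpl11 (-0.21). After quantile normalization Mrpl2 (0.06), Mrpl4 (0.02) and Mrpl11 (0.10) were above 0 and not called. Mrpl22 (-0.11) and Mrpl55 (-0.06) lost their calls there too.

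The class also held members that rose. Mrpl24, which lies close to the exit of the peptide tunnel, read 5.51, 5.61, 5.81 and 5.57 in PCKO and 5.19, 5.28, 5.25 and 5.44 in WT. The highest WT mouse lay just under the lowest PCKO mouse, and the difference was 0.34 ± 0.09 (adjusted p = 0.00938). Mrpl27 (0.32), Mrpl16 (0.30), Mrpl17 (0.27), Mrpl32 (0.27) and Mrpl36 (0.23) were called higher as well, each also after quantile normalization. Not called were Mrpl3 (0.10), Mrpl20 (0.10), Mrpl9 (-0.03), Mrpl10 (-0.09), Mrpl35 (-0.11), Mrpl19 (-0.15) and Mrpl23 (-0.21).

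Of the 21 large-subunit proteins found only in mitochondria, 5 were higher (23.8%, against 38.3% of all genes) and 7 lower (33.3%, against 32.7%). Their median was -0.10. Quantile normalization gave 7 higher (33.3%, against 43.3% of all genes) and 4 lower (19%, against 29%), with a median of 0.03. On the spike-in scale 9 were higher (42.9%, against 53.5%) and 0 lower (against 9.44%), with a median of 0.58. After Mrpl42 the lowest was Mrpl37, at 1.37, 1.31, 1.44 and 1.13 in PCKO and 2.08, 2.03, 2.22 and 2.03 in WT. All PCKO mice were below all WT mice, by -0.78 ± 0.09 (adjusted p = 6.91e-05), and after quantile normalization the value was nearly the same (-0.79). Mrpl38, in the central protuberance at the head of the large subunit, read 2.03, 1.81, 2.04 and 2.15 in PCKO against 2.81, 2.70, 2.56 and 2.58 in WT. The groups did not overlap, and the difference was -0.65 ± 0.10 (adjusted p = 0.00035), or 0.03 relative to the spike-ins. Its call was also lost with a normexp background correction (-0.30, adjusted p = 0.0548). Mrps30, which despite its symbol belongs to the large subunit, was lower too (-0.51), as were Mrpl51 (-0.47), Mrpl48 (-0.36) and Mrpl50 (-0.31). After quantile normalization these last 3 were at -0.01, -0.08 and -0.09 and were not called.

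The members of this class that rose were led by Mrpl41, also described as a partner of Bcl-2. It read 5.46, 5.65, 5.66 and 5.74 in PCKO against 5.21, 5.41, 5.12 and 5.26 in WT. The lowest PCKO mouse was just above the highest WT mouse, with a difference of 0.38 ± 0.09 (adjusted p = 0.00559). The mean of its probes gave 0.29 and ended the call (adjusted p = 0.126). Mrpl49 read 3.32, 3.29, 3.46 and 3.34 in PCKO against 2.91, 3.09, 2.93 and 3.01 in WT, without overlap, a difference of 0.36 ± 0.07 (adjusted p = 0.00217). Its second probe, of similar brightness, read -0.03 ± 0.09, and the mean of its probes (0.17) was not called (adjusted p = 0.087). The probes of Mrpl49 therefore do not give 1 value for the gene. Mrpl52 (0.32), Mrpl57 (0.30) and Mrpl45 (0.21), the last of which anchors the ribosome at the inner membrane, were higher, each also after quantile normalization. Not called were Mrpl40 (0.18), Mrpl53 (0.09, fitted on 7 arrays because 1 WT spot was marked as an outlier), Mrpl54 (0.01), Mrpl46 (0.00), Mrpl39 (-0.04), Mrpl44 (-0.10), Mrpl58 (-0.14), Mrpl43 (-0.19) and Mrps18a (-0.23).

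In the small subunit 5 of 26 members were higher (19.2%, against 38.3% of all genes) and 8 lower (30.8%, against 32.7%), and the median was -0.08. For the 50 of the large subunit 11 were higher (22%) and 23 lower (46%), with a median of -0.20. Quantile normalization gave 11 higher (42.3%) and 6 lower (23.1%) in the small subunit, with a median of 0.18. In the large one it gave 17 (34%) and 14 (28%), with a median of 0.01, against 43.3% and 29% of all genes. On the spike-in scale 10 were higher (38.5%) and 0 lower in the small subunit (median 0.60). In the large one 17 were higher (34%) and 0 lower (median 0.48), against 53.5% and 9.44% of all genes. The difference between the subunits was not tested. Of the 16 small-subunit proteins with a bacterial counterpart, 4 were higher (25%) and 5 lower (31.2%), near or below the shares of all genes. The lowest of these was Mrps28, at 5.95, 5.79, 5.92 and 5.88 in PCKO against 6.42, 6.60, 6.61 and 6.53 in WT. Each group kept within about 0.2 of itself and the gap between them was wider, for a difference of -0.65 ± 0.08 (adjusted p = 7.44e-05), or 0.03 relative to the spike-ins. Mrps15 (-0.54), Mrps5 (-0.50), Mrps21 (-0.27) and Mrps24 (-0.26) were lower too. After quantile normalization Mrps21 (0.18) and Mrps24 (-0.10) were not called. Mrps2 read 1.70, 1.81, 2.05 and 2.02 in PCKO against 1.60, 1.62, 1.45 and 1.47 in WT, with no overlap and a difference of 0.36 ± 0.10 (adjusted p = 0.0103). Mrps7 (0.25), which binds the head of the small ribosomal RNA, and Mrps10 (0.23) were higher as well. Not called were Mrps17 (0.16), Mrps12 (0.13), Mrps9 (-0.01), Mrps6 (-0.08), Mrps11 (-0.08), Mrps16 (-0.10) and Mrps14. Among the 10 found only in mitochondria, Mrps25 was higher and Mrps22 (-0.55), Mrps35 (-0.53) and Mrps31 (-0.41) were lower, and Mrps33 (0.07), Mrps34 (0.00), Mrps26 (-0.03), Mrps27 (-0.06), Mrps18b (-0.17) and Mrps23 (-0.17) were not called. Mrps36, of the oxoglutarate dehydrogenase complex, was lower (-0.59).

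The 3 paralogs of bacterial protein S18 did not share a direction at the 75th percentile. Only Mrps18c is counted above with a bacterial counterpart. Mrps18a and Mrps18b are counted with the proteins found only in mitochondria, despite their relation to S18. Mrps18c, of the small subunit, read 4.57, 4.72, 4.87 and 4.67 in PCKO against 4.43, 4.42, 4.32 and 4.23 in WT, without overlap, and rose by 0.36 ± 0.09 (adjusted p = 0.00585). Mrps18b, also of the small subunit, read 6.35, 6.40, 6.54 and 6.41 against 6.50, 6.65, 6.49 and 6.73, an overlapping difference of -0.17 ± 0.08 (adjusted p = 0.099). Mrps18a, which sits in the large subunit, read 4.92, 4.75, 5.03 and 4.79 against 5.27, 5.11, 5.18 and 4.86, again overlapping, at -0.23 ± 0.11 (adjusted p = 0.0822). Without WT mouse 4, Mrps18a was called lower (-0.31, adjusted p = 0.0181). On the spike-in scale the values were 1.04, 0.51 and 0.45 for Mrps18c, Mrps18b and Mrps18a, and of these Mrps18c alone was called. The differences between paralogs were not tested.

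**Figure D3:**
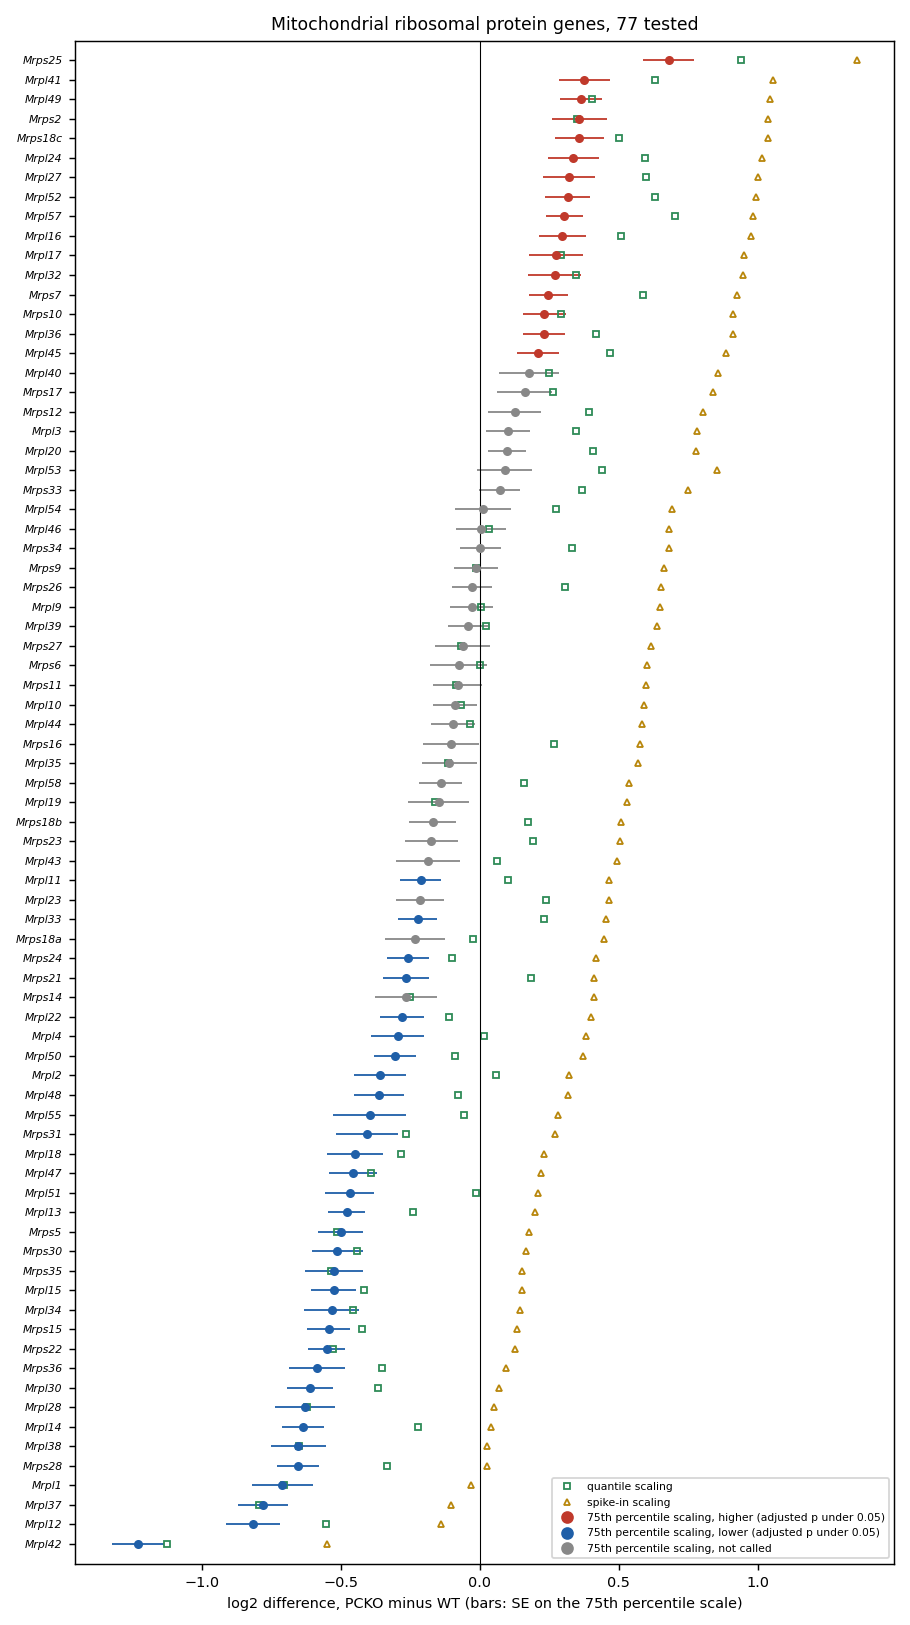
Log2 difference PCKO minus WT (x axis, 75th percentile scaling) of each of the 77 tested members, sorted, with bars for the standard error and colour for the call, and open symbols for the difference under quantile and spike-in scaling. The values run from -1.23 for Mrpl42 to 0.68 for Mrps25, with 32 called lower, 29 not called and 16 called higher. Under spike-in scaling the symbols lie 0.68 further to the right for every member but Mrpl53, and those of the members called lower at the 75th percentile lie on either side of 0.

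Members that sit together in the assembled ribosome did not all move together. The stalk proteins Mrpl10 (-0.09), Mrpl11 (-0.21) and Mrpl12 (-0.82) spanned from uncalled to one of the lowest, with 2 of 3 lower. Around the exit of the peptide tunnel, where new proteins leave, 3 of 6 were higher (Mrpl24, Mrpl17 and Mrpl45) and 2 lower (Mrpl47 and Mrpl22), with Mrpl23 not called and a median of 0.00. Of the 7 listed here for the central protuberance 0 were higher and 4 lower (Mrpl38, Mrpl18, Mrpl55 and Mrpl48), with a median of -0.36. Of all genes tested 38.3% were higher and 32.7% lower, and the list of each site holds only the members named here. The others listed for the protuberance, Mrpl40 (0.18), Mrpl46 (0.00) and Mrpl58 (-0.14), were not called. After quantile normalization the median of the protuberance was -0.06, with 2 of 7 lower (28.6%, against 29% of all genes). Relative to the spike-ins it was 0.32, with 2 higher (28.6%, against 53.5%).

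For several members the difference was near 0. Mrps34, a small-subunit protein, read 6.37, 6.37, 6.50 and 6.31 in PCKO and 6.43, 6.42, 6.28 and 6.40 in WT, a difference of 0.00 ± 0.07 (95% interval -0.17 to 0.17). For Mrpl46 the values were 2.72, 2.95, 3.03 and 2.84 in PCKO and 2.84, 3.0, 2.89 and 2.79 in WT (interval -0.20 to 0.21). The groups overlapped in both, and Mrpl54 (0.01) and Mrps9 (-0.01) were the next nearest to 0. On the spike-in scale these 4 were between 0.66 and 0.69 and were called higher, since that scale adds 0.68 to every gene fitted on all arrays. Within-group SDs of the members ran from 0.03 to 0.28 with a median of 0.10.

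Probes of 1 gene did not always give 1 answer. Of the 21 members with a pair of tested probes, none had opposed calls (0 of 21), and 8 had 1 probe called and the other not (Mrps25, Mrpl49, Mrps33, Mrps7, Mrpl4, Mrpl41, Mrpl27 and Mrps2). For Mrps33 the brighter probe read 0.07 and the dimmer -0.32, called lower (adjusted p over all probes = 0.0151). Both probes of Mrpl15 were lower, at -0.53 for the brighter and -1.46 for the dimmer. Which transcripts each probe detects was not examined.

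Promoter windows in the RefSeq table matched 69 of the 78 members, with 75 windows in all. The motifs were searched on both strands as CCGGAAG (ETS factors and GABP), GCGC followed by 2 free bases and GCGC (NRF1), AAGATGGC (YY1), TGACGTCA (CREB) and GGGCGG (SP1). NRF1 and GABP are known as regulators of nuclear genes for mitochondrial proteins. The ETS and GABP motif was in 26 member windows (34.7%), against 8.86% of all 32851 windows. NRF1 matched 14 (18.7%, against 6.23%), YY1 12 (16%, against 2.75%), SP1 39 (52.0%, against 35.7%) and CREB 2 (2.67%, against 1.79%). Members with and without a match were compared by their medians, with no test. The median difference was -0.14 for the 25 tested members with the ETS and GABP motif and -0.10 for the 43 without, -0.04 and -0.16 for NRF1, -0.07 and -0.16 for YY1, and -0.18 and -0.09 for SP1. Both members with the CREB motif, to which a partner of CBP binds, were called higher, namely Mrpl49 (by its brighter probe) and Mrpl16. Of all genes tested 38.3% were higher, and the second probe of Mrpl49 read -0.03 and was not called. With only a pair of genes, their calls are a description.

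The remaining windows show these cases and a low and an uncalled member for comparison. Mrpl12 (chr11:120484387-120484686, plus strand) has 1 NRF1 match, Mrpl49 (chr19:6057706-6058005, minus strand) has the CREB, YY1 and 2 SP1 matches, Mrpl16 (chr19:11770165-11770464, plus strand) has the CREB match, and Mrps12 (chr7:28741772-28742071, minus strand) has 1 match each to ETS and GABP, YY1 and SP1. Capitals mark the matches on either strand, in GRCm38.p6 sequence from RefSeq. A match is a description of the letters and no measure of binding, which was not assayed.
Mrpl12: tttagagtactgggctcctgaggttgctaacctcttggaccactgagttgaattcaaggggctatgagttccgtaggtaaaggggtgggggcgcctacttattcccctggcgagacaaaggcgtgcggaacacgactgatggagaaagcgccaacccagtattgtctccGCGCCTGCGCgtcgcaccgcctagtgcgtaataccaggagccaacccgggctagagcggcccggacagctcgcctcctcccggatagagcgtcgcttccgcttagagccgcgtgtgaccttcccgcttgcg
Mrpl49: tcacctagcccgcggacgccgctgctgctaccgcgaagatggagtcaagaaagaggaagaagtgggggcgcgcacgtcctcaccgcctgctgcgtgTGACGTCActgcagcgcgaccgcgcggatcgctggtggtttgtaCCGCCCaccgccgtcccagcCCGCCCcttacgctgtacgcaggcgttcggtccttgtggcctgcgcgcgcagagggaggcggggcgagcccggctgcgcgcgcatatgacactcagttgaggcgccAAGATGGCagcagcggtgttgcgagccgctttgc
Mrpl16: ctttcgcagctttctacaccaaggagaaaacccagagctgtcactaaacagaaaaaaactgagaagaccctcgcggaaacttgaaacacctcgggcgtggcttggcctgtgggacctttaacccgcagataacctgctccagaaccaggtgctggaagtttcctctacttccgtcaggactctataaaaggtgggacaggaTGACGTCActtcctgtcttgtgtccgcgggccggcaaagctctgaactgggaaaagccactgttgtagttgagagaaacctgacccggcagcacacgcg
Mrps12: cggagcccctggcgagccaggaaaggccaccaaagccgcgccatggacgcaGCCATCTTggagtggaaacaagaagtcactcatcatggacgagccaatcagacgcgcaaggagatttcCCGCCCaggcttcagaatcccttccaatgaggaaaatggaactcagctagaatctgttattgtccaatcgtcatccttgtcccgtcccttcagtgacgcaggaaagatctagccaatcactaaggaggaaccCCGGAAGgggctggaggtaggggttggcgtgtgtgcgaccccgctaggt

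Many members start close to a gene on the opposite strand, an arrangement in which both genes share the sequence between their starts. Such a partner within 1000 bases was listed by RefSeq for 27 members, and in 20 pairs both genes were tested. Both were called in 8 pairs, in the same direction in 5 and in opposite directions in 3. Of the partners 7 were higher and 5 lower, where 38.3% of all genes were higher and 32.7% lower. With 71% of all genes called and no count for random pairs made, these numbers are a description. In 11 pairs 1 gene was called, and in 1 pair neither, namely Mrpl46 and Mrps11, which are each other's partner. Mrps12 and its neighbour Sars2, the mitochondrial seryl-tRNA synthetase, lay far apart, at 0.13 ± 0.10 (not called, adjusted p = 0.264) and -0.95 ± 0.12 (adjusted p = 0.000102). Sars2 read 0.17, 0.38, 0.30 and 0.35 in PCKO against 1.52, 1.33, 1.13 and 1.03 in WT, with no overlap. Mrpl43 was not called (-0.19), while Twnk, the mitochondrial DNA helicase that shares its start region, was lower (-0.56). Whether the members of a pair differ was not tested.

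Pairs that moved the same way were Mrpl47 with Ndufb5, a complex I subunit (-0.46 and -0.72), Mrps5 with Zfp661 (-0.50 and -1.27, the latter with a standard error of 0.50), Mrpl41 with Pnpla7, a lysophospholipase (0.38 and 0.43), Mrpl49 with Fau, which encodes a cytosolic ribosomal protein (0.36 and 0.25), and Mrps18c with Helq, a DNA helicase (0.36 and 1.04). In the 3 opposite pairs the member was lower and the partner higher, as for Mrpl30 with Mitd1 (-0.61 and 0.47), Mrpl51 with the condensin subunit Ncapd2 (-0.47 and 0.44) and Mrpl2 with the kinesin light chain Klc4 (-0.36 and 0.38). Relative to the spike-ins these 3 members were above 0 and not called, at 0.07, 0.21 and 0.32.

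**Figure D4:**
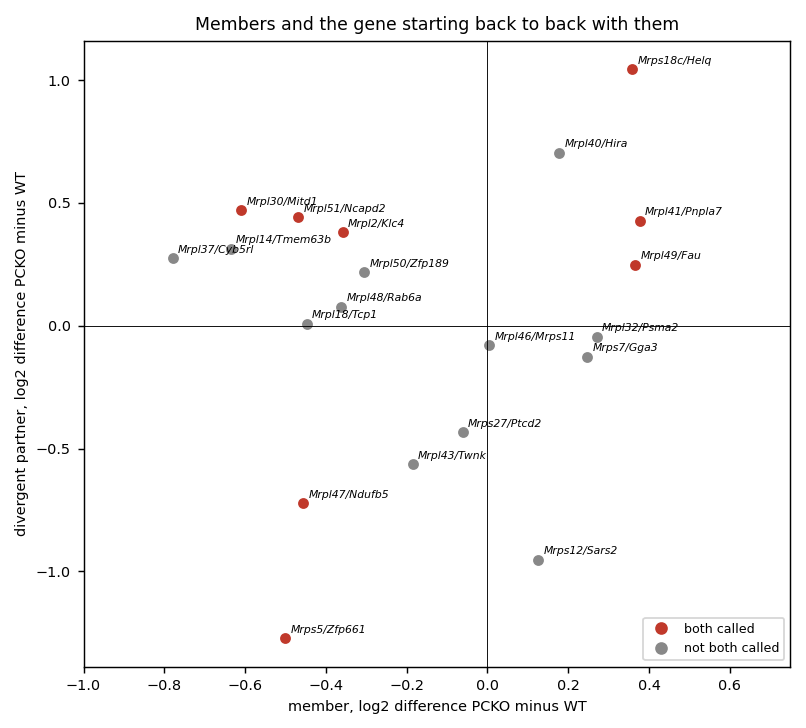
Difference of each member (x axis, log2 PCKO minus WT, 75th percentile scaling) against that of the gene starting within 1000 bases on the opposite strand (y axis), for the 20 pairs with both tested. Both genes were called in 8 pairs, where 71% of all genes were called. In 5 of them the direction was the same, and in 3 the member was lower and the partner higher. A constant shift from another scaling would move all points along the diagonal.

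The machinery that serves the mitochondrial ribosome was split as well at the 75th percentile, as were all genes tested (38.3% higher and 32.7% lower). Of the 5 mitochondrial ribosomal proteins with other symbols, Ptcd3 (-0.75) and Chchd1 (-0.66) were lower, Gadd45gip1 was higher (0.56) and Dap3 (0.02) and Aurkaip1 (0.06) were not called. The mean of its probes gave 0.13 for Gadd45gip1 and ended its call (adjusted p = 0.296). Among 15 tested translation factors 5 were higher (33.3%) and 6 lower (40%), with a median of -0.05. Mtfmt, which formylates the initiator tRNA, led the higher ones at 0.93 ± 0.12 (adjusted p = 0.000113). Taco1, an activator of the translation of a cytochrome oxidase subunit, was lowest at -0.85 ± 0.15 (adjusted p = 0.000848). Of 19 aminoacyl-tRNA synthetases and partners 6 were higher (31.6%) and 5 lower (26.3%), with a median of 0.11. They ran from Sars2 at -0.95 to the prolyl-tRNA synthetase Pars2 at 0.83. Relative to the spike-ins 3 of the 5, 7 of the 15 and 13 of the 19 were higher, beside 53.5% of all genes. In these lists 0 genes were lower there (against 9.44%), and Sars2 (-0.27), Taco1 (-0.17) and Ptcd3 (-0.08) lost their calls.

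Of 25 tested assembly factors of the mitochondrial ribosome, 7 were higher (28%, against 38.3% of all genes) and 6 lower (24%, against 32.7%). Their median was 0.03. After quantile normalization 7 were higher and 7 lower (28% each, against 43.3% and 29% of all genes), with a median of 0.06. On the spike-in scale 13 were higher (52%, against 53.5%) and 0 lower (against 9.44%). Their median there was 0.71, beside 0.73 for all genes. Mrm1, which methylates the large mitochondrial ribosomal RNA, showed the largest rise in the lists of genes serving the mitochondrial ribosome. It read 4.89, 4.86, 5.00 and 5.25 in PCKO against 2.98, 3.49, 3.02 and 3.37 in WT. The groups lay over 1 log2 unit apart, a difference of 1.78 ± 0.14, or 3.44-fold (adjusted p = 7.50e-06), and it was higher on all 3 scales (1.91 and 2.46 on the others). Malsu1, a protein bound to the large subunit during its assembly, read 5.87, 6.05, 6.23 and 5.95 in PCKO against 6.86, 7.06, 7.0 and 7.04 in WT. It was 1.96-fold lower (-0.97 ± 0.10, adjusted p = 2.88e-05), and at -0.29 relative to the spike-ins it was not called.

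Among the 9 genes for transcription and upkeep of mitochondrial DNA, 1 was higher (11.1%, against 38.3% of all genes) and 5 lower (55.6%, against 32.7%). Their median was -0.36. Mgme1, a mitochondrial exonuclease, was lowest, but it is a dim gene that was well above background on 1 of 4 PCKO arrays and 4 of 4 WT arrays, so the size of its difference is not measured. The fit gave -2.29 ± 0.49 (adjusted p = 0.00286), with -0.79 after normexp, -0.70 in the deposited values and -2.53 to -1.75 when 1 mouse was left out, called lower in each. Tfb2m, which helps the mitochondrial RNA polymerase to start, was also in this group (-0.36, with the call lost without PCKO mouse 3, WT mouse 2 or WT mouse 4, at -0.35, -0.34 and -0.31). Tfam, which packages mitochondrial DNA and starts its transcription, was named after its values were seen. It read 3.84, 3.71, 3.86 and 3.89 in PCKO against 4.43, 4.73, 4.66 and 4.84 in WT, a difference of -0.84 ± 0.10 (adjusted p = 8.14e-05), or -0.16 and not called relative to the spike-ins. On the spike-in scale Mgme1 alone of the 9 was lower (11.1%, against 9.44% of all genes), and 3 were higher (33.3%, against 53.5%).

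The protein families most like the mitochondrial ribosomal proteins behaved more uniformly at the 75th percentile, although no test was made between lists. Of 81 tested nuclear subunits of oxidative phosphorylation, the respiratory complexes and ATP synthase, 75 were lower (92.6%, against 32.7% of all genes). Another 2 were higher (2.47%, against 38.3%). The list had a median of -0.57 and an interquartile range of 0.34. The muscle isoform Cox6a2 was lowest (-1.59) and Cox6b2, known as a testis isoform, was slightly higher (0.23, with the call lost without PCKO mouse 3, WT mouse 3 or WT mouse 4, at 0.19, 0.20 and 0.23). After quantile normalization 29 of the 81 were lower (35.8%, against 29% of all genes) and 7 higher (8.64%, against 43.3%), with a median of -0.08. Relative to the spike-ins 1 was lower (1.23%, against 9.44%) and 2 higher (2.47%, against 53.5%), with a median of 0.11. Of 72 cytosolic ribosomal proteins 19 were lower (26.4%, against 32.7% of all genes) and 2 higher (2.78%, against 38.3%). Their median of -0.13 was close to that of the mitochondrial ones, but their interquartile range was 0.24 against 0.56. Their extremes were Rps2 (-0.68) and Rpl3 (1.24). After quantile normalization 55 of the 72 were higher (76.4%, against 43.3%) and 0 lower (against 29%), with a median of 0.37 beside 0.15 for all genes. Rps10, at a level of 9.09 in WT, went from 0.00 to 0.61, and Rps21, at 2.25, from -0.0045 to -0.0020. Whether this move depends on brightness was not tested. Relative to the spike-ins 19 were higher (26.4%, against 53.5%) and 0 lower (against 9.44%), with a median of 0.55 beside 0.73. The mitochondrial ribosomal proteins thus had the widest middle of the 3 families at the 75th percentile and after quantile normalization (0.58, against 0.43 and 0.29). The spike-in scale adds the same amount to every gene fitted on all arrays. Its ranges (0.58, against 0.31 and 0.24) therefore add little to those at the 75th percentile.

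**Figure D5:**
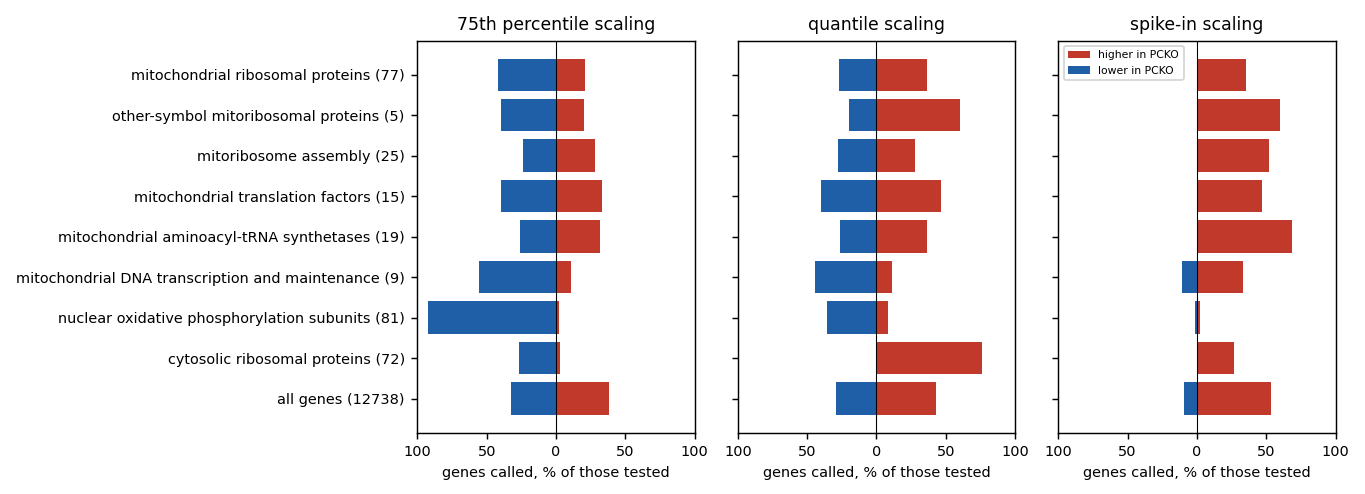
Share of the tested genes of each list called higher (to the right) and lower (to the left) in PCKO (x axis, percent), under each of the 3 scalings. At the 75th percentile 20.8% of the mitochondrial ribosomal proteins were higher and 41.6% lower, against 2.47% and 92.6% of the oxidative phosphorylation subunits and 38.3% and 32.7% of all genes, and relative to the spike-ins 0 mitochondrial ribosomal proteins were lower.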

How the data were processed

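The deposited scanner files hold spot intensity values, background-subtracted and corrected for spatial trend per the file headers (Feature Extraction, version 10.7.3.1), and not normalized between arrays. The authors' deposited value table is on a log2 scale. How it was made is not stated in the labels, and it served as an alternative. Array number limits precision.

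Control and outlier spots were left out, spots of 1 probe averaged, log2 taken and the array's 75th percentile subtracted. A probe was tested where well above background on at least 4 of 8 arrays, and a gene was its brightest tested probe. Accessions were matched without versions to RefSeq mouse genes (GRCm38.p6), giving 26582 probes 1 symbol and 29099 none. PCKO and WT were set against each other in R 4.3.3 by limma 3.58.1, with lmFit, eBayes and two-sided p-values, and Benjamini-Hochberg adjustment over all 12738 genes and a threshold of 0.05. The fit was tested on simulated data. Quantile normalization and centring on 7 spike-in probes repeated it, and further alternatives are given in the closing section. normexp (offset 50) started from median spot signals, since no mean signal column was among those used.

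The labels describe 4 separate mice per group. Members, lists and tests were chosen with earlier results of these data known. Named genes were both targets, the 6 largest and 6 smallest called differences, up to 6 per direction called on all 3 scales, the 4 nearest to 0, members above background in 1 group only (0 found) or with opposed probes (0 found), the Mrps18 paralogs, and the called extremes of each related list. Other members are given by their values, and members of neighbour pairs by their position. The translation factor Mtrfr was not matched. No protein sequences were used here.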

Additional observations from a re-analysis of the deposited data

Results flagged for a closer look

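In 4 of 68 groups of 4 mice examined among the named genes, 1 mouse stood apart from its group by Dixon's test at the 95% level, where chance gives about 5%. For Mrpl42 this was PCKO mouse 3, at 3.63 while the other PCKO mice were at 3.34 to 3.37, still below every WT mouse. For Pars2 it was PCKO mouse 1, at 1.96 against 2.06 to 2.07. For Mgme1 it was PCKO mouse 2, at -6.04 against -4.04 to -3.70, in a gene well above background on 1 of 4 PCKO arrays. For Rps2 it was WT mouse 3, at 7.72 against 8.00 to 8.02.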

How the results depend on the processing

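The count of members called higher (16) moved to 28 after quantile normalization, 27 relative to the spike-ins, and 1 and 6 in slide rows 1 and 2 alone, each with only 2 mice a group. The count called lower (32) moved to 21 after quantile normalization, 0 relative to the spike-ins (0 also with each gene's own variance, added after seeing the data), 8 with normexp, 12 of 50 members in the deposited values and 16 in slide row 2. The median (-0.15) became 0.0157, 0.53 and 0.0743 with quantile, spike-in and normexp scaling and -0.0022 in the deposited values. Leaving out 1 mouse gave 11 to 16 higher, 27 to 33 lower and medians of -0.20 to -0.13. A replicate block gave 14 higher and 31 lower, keeping 45 of the 48 calls. Mice sharing a number correlated by 0.054 to 0.124 in their deviations, each best with its own number, a hint from the data only. All 48 called members kept their sign in both slide rows. Since the groups of these members did not overlap, that outcome was fixed in advance. Signs turned for Mrps18b with quantile (0.17), spike-in (0.51), normexp (0.0909) and deposited values (0.17). Relative to the spike-ins they turned for Mrps28 (0.0252), Mrpl38 (0.0261), Mrps9 (0.66), Mrps18a (0.45), Tfb2m (0.32) and Rps2 (0.0030), and with normexp for Mrps9 (0.15), Mrps18a (0.0743) and Cox6b2 (-0.14). In the deposited values Mrpl49 was at -0.0279, where only its other probe is listed. Around 0, median centring gave -0.0812 for Mrps34, -0.0796 for Mrpl46 and -0.0711 for Mrpl54. Keeping outlier spots gave -0.0020 for Mrps34 and -0.0004 for Mrpl46, and array weights -0.0105 for Mrpl46. Slide row 1 gave -0.0581, -0.0851 and -0.0427 for Mrps34, Mrpl46 and Mrpl54. Slide row 2 gave 0.0436 for Mrps9, and centring on the members (added after seeing the data) 0.0721. Leaving out 1 mouse gave -0.0340 to 0.0292 for Mrps34, -0.0430 to 0.0581 for Mrpl46, -0.0494 to 0.0617 for Mrpl54 and -0.0619 to 0.0249 for Mrps9. Beyond what a setting itself changes, the cause of these moves was not tested. Cox6b2 and Tfb2m lost their calls in 11 of 24 settings each.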
